A study of Saccharomyces cerevisiae with 29 samples.

Results

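The ribosome of budding yeast is built from ribosomal RNA and ribosomal proteins in a large and a small subunit, and most of these proteins are made from a pair of genes. The genes for the cytoplasmic ribosomal proteins were taken from the annotation of L03, the reference sequence of these yeast strains, as the gene rows with an mRNA whose name is RPL, RPS or RPP0 to RPP2 followed by digits and an optional A or B. The rule matched 138 of 5859 gene rows. The match RPP1 (YHR062C), an intron-free gene of 882 bp on chromosome VIII, is by its own note a subunit of RNase MRP and RNase P and not a ribosomal protein, so it was set apart. The other 137 genes are 2.34% of the 5857 genes that remain without 2 dubious reading frames. They form 78 families, of which 59 are A/B pairs and 19 are single-copy genes. The large subunit, its stalk included, has 81 of the genes and the small subunit 56.

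The series describes 29 HydEn-seq libraries, a method that breaks DNA with alkali wherever a ribonucleotide was built in and sequences the resulting ends, from cells in mid-log growth at 30°C. The strains carry variants of DNA polymerase epsilon (pol2), delta (pol3) or alpha (pol1), or none. Libraries without RNH201, the catalytic subunit of RNase H2 that removes such ribonucleotides, came from rnh201-delta alone (2 libraries) and from rnh201-delta joined with pol2-M644L (2), pol2-M644G (4), pol3-L612G (2), pol3-L612M (2), pol1-Y869A (3) and pol1-L868M (1). Libraries with RNH201 came from pol2-M644L (2), pol2-M644G (3), pol3-L612G (2), pol3-L612M (1), pol1-Y869A (2), pol1-L868M (1) and WT (2). No library value was analysed here, so no strain is compared with another, and every count, length and distance below belongs to the 1 annotated sequence that all strains share, with no replicates, no error between samples and no test.

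Ribosomal proteins are among the most abundant proteins of a growing yeast cell, and their genes are transcribed together, mainly through Rap1, Fhl1 and Ifh1. Most of the A/B pairs descend from the duplication of the whole genome in an ancestor of this yeast, and both copies usually remain expressed. Introns are rare in budding yeast genes, and ribosomal protein transcripts make up much of what the spliceosome handles in fast growth.

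An intron interrupted the coding sequence of 89 of the 137 ribosomal protein genes, or 65%, beside 4.61% of all genes. The share was alike in the subunits, with 53 of 81 genes of the large subunit (65.4%) and 36 of 56 genes of the small subunit (64.3%). It was 84 of 118 among paired genes (71.2%) and 5 of 19 among single-copy genes (26.3%). The ribosomal protein genes made up 0.746% of all coding bases but held 91 of 279 introns (32.6%) and 56.3% of all intron bases.

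The introns of ribosomal protein genes were long. Their median length was 408 bp (quartiles 365 and 459.5, n = 91), against 97 bp (quartiles 83 and 141.5, n = 188) in the other genes. Of the 91 introns, 90 had at least 200 bp, beside 43.7% of all introns and 17% of those in other genes. Of the 106 introns of 300 bp or more in the annotation, 84 lay in ribosomal protein genes. The subunits again were alike, with a median of 407 bp in large subunit genes and 408.5 bp in small subunit genes. Among genes with an intron, it took up a median of 49.2% of a ribosomal protein gene between start and stop codon, against 13.2% in the others.

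**Figure D1:**
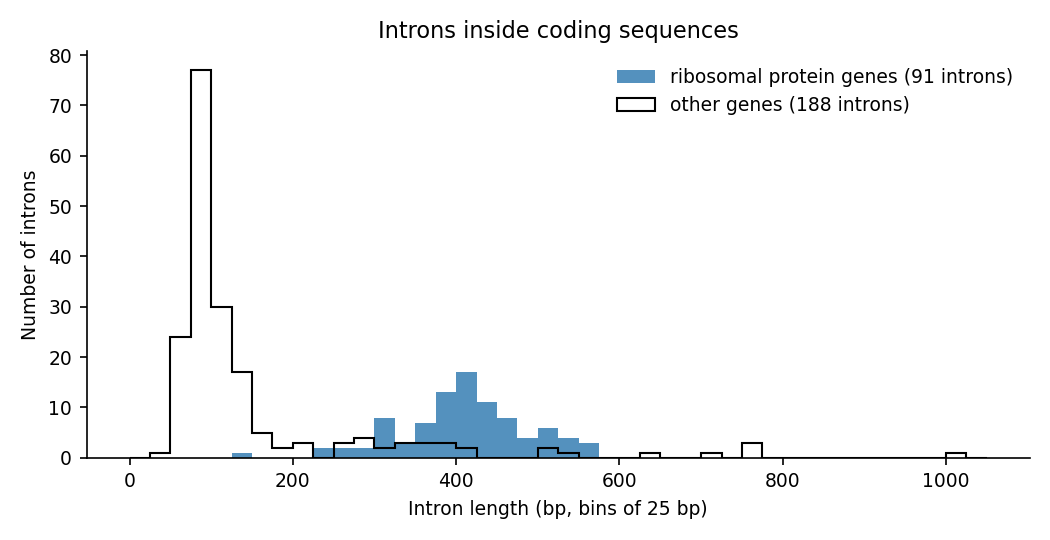
The horizontal axis is intron length in bp, in bins of 25 bp, and the vertical axis is the number of introns inside coding sequences. Filled bars are the 91 introns of ribosomal protein genes, around a median of 408 bp, and the outline is the 188 introns of other genes, around a median of 97 bp.

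Introns of other genes reached 1002 bp. Among ribosomal protein genes the longest intron, 561 bp, was that of RPL27A (YHR010W, chromosome VIII, 126521 to 127492, plus strand). RPS19B followed with 551 bp, RPS27B with 550 bp, RPS16A with 544 bp and RPS13 with 539 bp. The shortest of the 91, 147 bp, lay in RPL2A (YFR031C-A, chromosome VI, 220508 to 221419, minus strand), whose protein sits near the peptidyl transferase centre. RPL30 had 230 bp, RPL36B 238 bp, RPS4A 256 bp and RPS4B 269 bp. The RPL2A intron was therefore the 1 of the 91 under 200 bp, and all 5 of the shortest were still longer than the median of other genes.

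The first intron came early in the coding sequence. It followed a median of 15 coding bases (quartiles 4 and 45, range 1 to 309, n = 89), against 38 (quartiles 19 and 110, n = 181) in other genes. As a share of coding length this was 3.85%, against 5.65%, since ribosomal protein genes are also short. The first intron lay within the first 10% of the coding sequence in 64 of 89 genes (71.9%), beside 61.9% of the other genes with an intron, so the share differed less than the count of bases did. In 11 genes, among them both copies of RPS24, RPS27, RPS30 and RPL35, the first exon held the start codon and no further coding base, and 9 of 181 other genes had that form. In 6 genes, both copies of RPL19, RPL20 and RPL43, the intron split the start codon itself, as in 2 of 181 other genes. The deepest first introns were those of RPL17A and RPL17B, a protein near the exit of the peptide tunnel, after 309 coding bases. The first intron fell after a whole number of codons in 38 of 89 genes (42.7%, beside 35.9% of the other genes with an intron), after 1 base of a codon in 33 and after 2 bases in 18.

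More than 1 intron inside the coding sequence was found in RPL7A and RPL7B alone among the 137 genes (1.46%), beside 0.154% of all genes. Among genes with an intron these were 2 of 89, beside 9 of 270 over all genes. No excess of second introns is therefore read from them. Rpl7 is a protein of the large subunit. RPL7A (YGL076C, chromosome VII, 364330 to 365991, minus strand) had introns of 459 and 468 bp. RPL7B (YPL198W, chromosome XVI, 173143 to 174693, plus strand) had introns of 409 and 407 bp. In both copies the first intron followed 11 coding bases and the second came 94 coding bases later, so the coding layout was the same and all 4 introns differed in length.

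Small nucleolar RNAs, which guide the modification of ribosomal RNA, were annotated inside 3 of the 91 introns of ribosomal protein genes, each on the strand of its host. No such count is given for introns of other genes, so hosting is not read as particular to ribosomal protein genes. SNR39 (89 bp) lay in the second intron of RPL7A and SNR59 (78 bp) in the second intron of RPL7B. SNR44 (211 bp) lay in the intron of RPS22B and covered positions 856621 to 856831 of its chromosome. The RPL7 copies thus each hosted an RNA in the same intron, under different names, while the RPS22 pair hosted 1 in the copy that has an intron.

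Within pairs, the number of introns was nearly always shared. Of the 59 pairs, 40 had 1 intron in both copies, the RPL7 pair had 2 in both, 16 had none in either, and 2 differed. Among paired genes 71.2% had an intron, and no like count over pairs of unrelated genes stands beside these counts. The pairs without introns included RPL1, RPL4, RPL8, RPL9, RPL11, RPL12, RPL15, RPL24, RPL41, RPS1, RPS25, RPS26, RPS28, RPS29 and the stalk pair RPP2. The small subunit pair RPS22 was the first exception: RPS22A (YJL190C, chromosome X, 74911 to 75303, minus strand) had no intron and RPS22B (YLR367W, chromosome XII, 856353 to 857228, plus strand) had 1 of 483 bp after 133 coding bases. The other was the acidic stalk pair RPP1: RPP1A (YDL081C, chromosome IV, 309741 to 310061, minus strand) had none and RPP1B (YDL130W, chromosome IV, 229845 to 230466, plus strand) had 1 of 301 bp after 114 coding bases. In both exceptions the A and B coding lengths were equal, at 393 bp for RPS22 and 321 bp for RPP1, and the intron was in the B copy.

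The place of the intron was shared as well. Of the 41 pairs with an intron in both copies, 39 had the first intron after the same coding base. RPS14, a small subunit protein that in yeast also binds its own RPS14B transcript, had 7 coding bases before the intron in RPS14A and 10 in RPS14B, with coding lengths of 414 and 417 bp. RPL16 had 31 in RPL16A and 28 in RPL16B, with coding lengths of 600 and 597 bp. In each of these pairs the extra codon stood before the intron, since the coding length after it was the same, 407 bp in both copies of RPS14 and 569 bp in both copies of RPL16. The coding length after the first intron was equal in 39 of the 41 pairs, and the other 2 were RPL22 and RPS9.

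**Figure D2:**
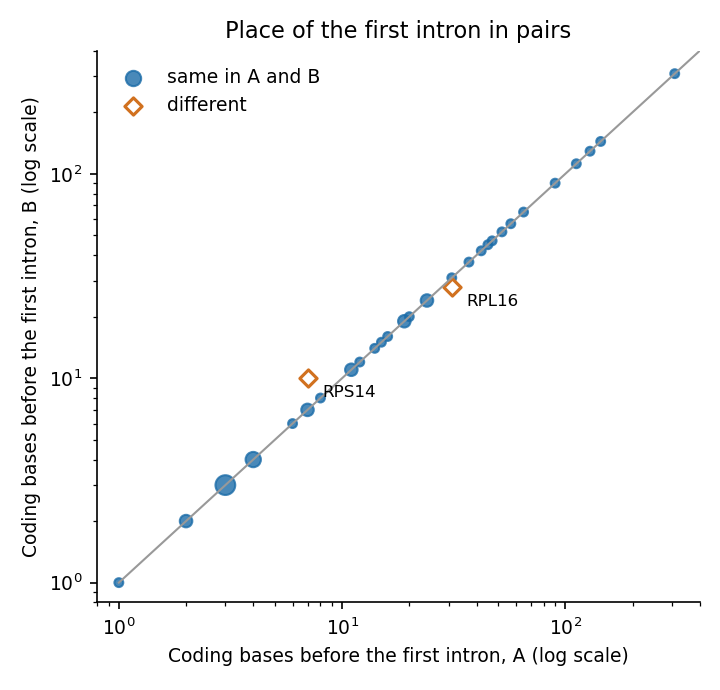
Each point is a place of the first intron in the 41 pairs that have an intron in both copies, with coding bases before it in the A copy on the horizontal axis and in the B copy on the vertical axis, both on log scales. Larger circles hold more pairs, and the 39 pairs on the diagonal contrast with RPS14 and RPL16, drawn as diamonds.

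The length of the intron was not shared in the same way. The A and B first introns had equal length in 1 of 41 pairs, the A intron was longer in 24 and the B intron in 16. The median difference within a pair was 65 bp (quartiles 33 and 112), against 71 bp (quartiles 33 and 122) over the 3280 comparisons of first introns between different families of these pairs. Across the 41 pairs the A and B lengths had a Pearson r of 0.12 and a Spearman rho of 0.14, given as a description over genes of 1 genome. A difference of over 100 bp was found in 12 pairs. The lengths of the copies were therefore about as far apart as those of genes from different families. The place in the coding sequence was the same in nearly all pairs, but it was not compared between families.

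RPL2 had the largest difference, with 147 bp in RPL2A and 400 bp in RPL2B (YIL018W, chromosome IX, 316734 to 317898, plus strand), a ratio of longer to shorter of 2.72. RPL36 had 463 bp in RPL36A and 238 bp in RPL36B. RPS27 had 351 bp in RPS27A and 550 bp in RPS27B. These differences ran in both directions, the longer intron being in the B copy of RPL2 and RPS27 and in the A copy of RPL36. RPL27 had 561 bp in RPL27A and 384 bp in RPL27B. The RPL2 proteins are among those that the annotation calls identical between the copies.

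At the other end, RPL14A (YKL006W, chromosome XI, 431560 to 432374) and RPL14B (YHL001W, chromosome VIII, 104277 to 105091) both had an intron of 398 bp after 129 coding bases. RPL33 had 525 bp in RPL33A and 527 bp in RPL33B, and RPL17 had 307 bp in RPL17A and 317 bp in RPL17B. RPS4 had 256 bp in RPS4A and 269 bp in RPS4B. Long, middle and short introns were thus all found among the closely matched pairs.

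**Figure D3:**
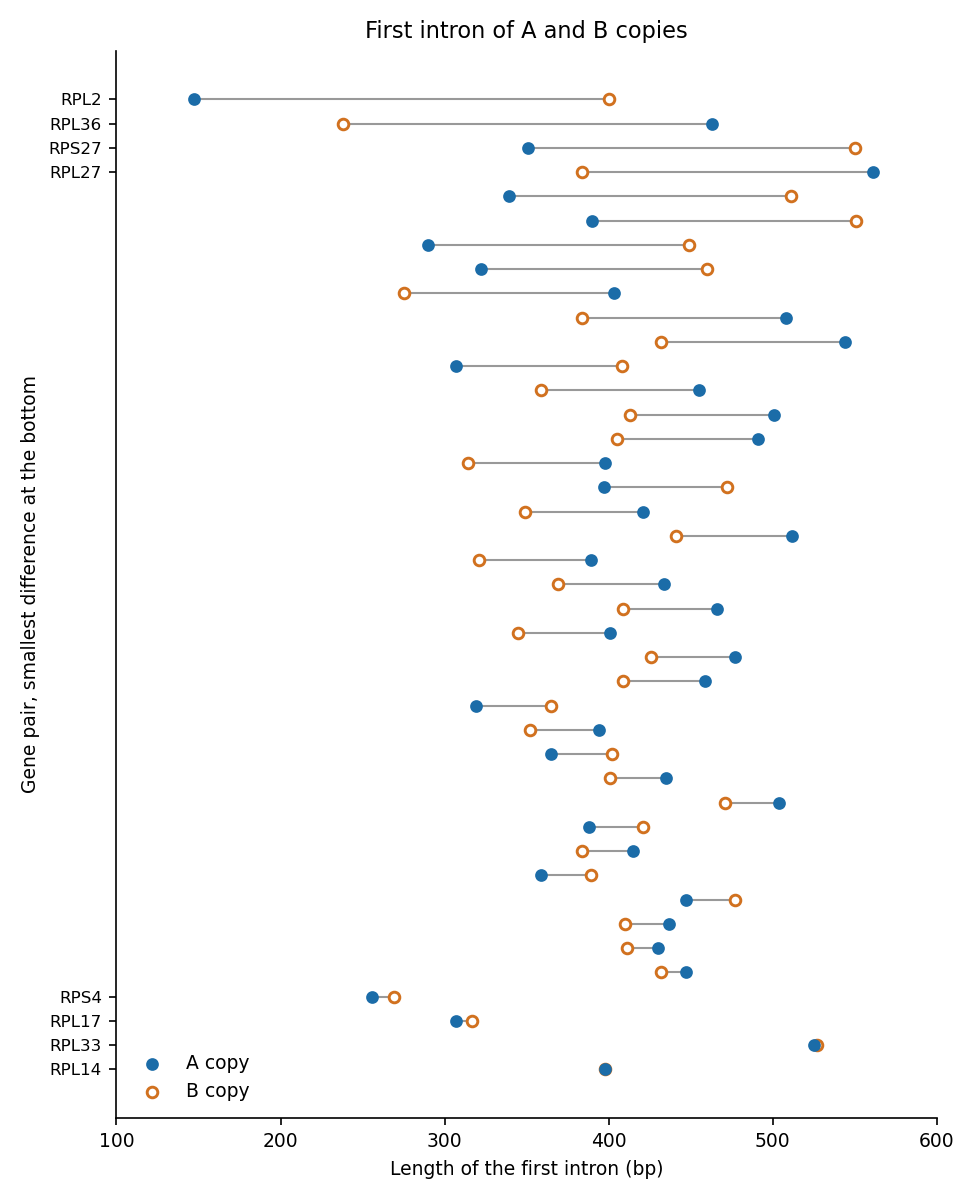
The horizontal axis is the length of the first intron in bp, and each line down the page is 1 of the 41 pairs with an intron in both copies, ordered by the difference between them, with the 4 largest and the 4 smallest named. Filled circles are A copies and open circles B copies, from RPL2 (147 and 400 bp) at the top to RPL14 at the bottom, where both copies have 398 bp and the circles coincide.

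The notes of the annotation state how alike the proteins of a pair are, and they were used here in place of aligned sequences. They call 14 pairs identical, among them RPL2, RPL23, RPL35, RPL40, RPL41, RPL42, RPL43, RPS4, RPS6, RPS16 and RPS24. RPL40 encodes a fusion of ubiquitin to a large subunit protein. Of the identical pairs, 12 had introns, whose lengths differed by a median of 68 bp (range 13 to 253). The notes call 39 pairs nearly identical, and the 25 of these with introns differed by a median of 56 bp (range 0 to 225). The 4 pairs called similar, RPL6, RPL16, RPL22 and RPL37, differed by a median of 49.5 bp (range 30 to 159), and for the stalk pairs RPP1 and RPP2 no likeness is stated. The pairs with identical proteins were not the ones with the smaller median difference.

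Ribosomal protein genes were short. Their median coding length, stop codon included, was 432 bp (quartiles 342 and 588, n = 137), against 714 bp for the 69 mitochondrial ribosomal protein genes and 1224 bp for all genes. A coding length under 1 kb was found for 134 of 137, beside 39.2% of all genes. The exceptions were RPL3 (YOR063W, chromosome XV, 442728 to 443891, plus strand) with 1164 bp, and both copies of RPL4 with 1089 bp. The shortest were RPL41A (YDL184C, chromosome IV, 130346 to 130423, minus strand) and RPL41B (YDL133C-A, chromosome IV, 221663 to 221740, minus strand), each with 78 bp for a peptide of 25 residues. Ribosomal protein genes with an intron had a median coding length of 417 bp and those without one 498 bp. The coding length matched the stated protein length in all 137 genes, whereas it differed in 1.54% of all genes.

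Coding length was equal in 54 of 59 pairs and differed by at most 12 bp in the other 5. RPP2, the second acidic stalk pair, had 321 bp in RPP2A and 333 bp in RPP2B. RPS9 had 594 bp in RPS9A and 588 bp in RPS9B. RPL22 had 366 bp in RPL22A and 369 bp in RPL22B, which together with RPS14 and RPL16 makes 3 pairs that differed by 1 codon. The longer copy was A in RPS9 and RPL16 and B in RPP2, RPL22 and RPS14.

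The 19 single-copy genes comprised 11 of the large subunit, RPP0 included, and 8 of the small subunit. Introns were found in 5 of them. RPL25 (YOL127W, chromosome XV), whose protein lies at the exit of the peptide tunnel, had 414 bp of intron after 13 coding bases. RPL28 (YGL103W, chromosome VII), where cycloheximide resistance mutations are known, had 511 bp after 49 bases. RPL30 (YGL030W, chromosome VII), whose protein in yeast binds its own transcript and blocks its splicing, had the second shortest intron of the 91, 230 bp, directly after the start codon. RPL39 (YJL189W, chromosome X), which lines the exit tunnel, had 386 bp after 6 bases, and the intron made up 71.2% of the gene, the highest share among the 89. RPS13 (YDR064W, chromosome IV) had 539 bp after 21 bases.

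The other 14 single-copy genes had an unbroken coding sequence. In the large subunit they were RPL3, close to the peptidyl transferase centre, RPL5 (894 bp), which carries a ribosomal RNA into the subunit, RPL10 (666 bp), which joins late in maturation, RPL29 (180 bp), RPL32 (393 bp), RPL38 (237 bp) and RPP0 (939 bp), the base of the stalk that recruits elongation factors. In the small subunit they included RPS2 (765 bp) and RPS3 (723 bp), both at the entry of the mRNA channel, RPS12 (432 bp), RPS15 (429 bp), RPS20 (366 bp) and RPS31 (459 bp), a fusion of ubiquitin to a small subunit protein. Their coding lengths spanned nearly the whole range of the family, as RPL3 is its longest member and RPL29 has 59 residues.

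Other genes of translation were looked up as lists chosen for their role. Of 10 elongation factor genes, 2 had an intron: EFB1 with 366 bp and TEF4 with 326 bp, which encode subunits of the nucleotide exchange factor of elongation. Of 2 genes for ribosome-bound proteins, ASC1 had 273 bp of intron and STM1 had none. None of the 8 chaperones of ribosomal proteins that were found, of 10 listed, and none of the 10 regulators of ribosomal protein gene transcription, Rap1, Fhl1 and Ifh1 included, had an intron. Among the mitochondrial ribosomal protein genes it was 2 of 69 (2.9%). The 3 introns in these translation lists were longer than the 97 bp median of other genes.

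Ribosomal protein genes were spread over 15 of the 16 chromosomes. Chromosome IV held 19, chromosome XII 18, chromosome VII 14 and chromosome XV 13, whereas chromosome III held RPS14A alone and chromosome I none. As a share of the genes of a chromosome the highest was 3.56% on chromosome XII, beside 2.52% on chromosome IV. The plus strand carried 75 of 137 genes, beside 50.5% of all genes. The copies of 54 pairs lay on different chromosomes. The 5 pairs on the same chromosome were RPL19 on chromosome II (246 kb between starts), RPL24 on chromosome VII (350 kb), and RPL35 (99.9 kb), RPL41 (91.3 kb) and RPP1 (79.9 kb) on chromosome IV. RPL14B, 0.961 kb from the centromere of chromosome VIII, was the gene nearest to a centromere, and RPL8A, 35.3 kb from an end of the same chromosome, the gene nearest to a chromosome end.

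Neighbouring protein-coding genes were classed by strand. An upstream neighbour is divergent if it is read the opposite way, away from the shared gap, and otherwise tandem, and a downstream neighbour is convergent if it is read towards the gene. The upstream neighbour was divergent for 77 of 137 ribosomal protein genes (56.2%), beside 51.7% of all genes. The downstream neighbour was convergent for 72 (52.6%), beside 51.6% of all genes, so each share was near that of the genome. Both held together for 47 genes (34.3%), against 27.7% of all genes. No ribosomal protein gene overlapped a neighbour, beside 2.59% of all genes.

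The copies of a pair were also compared in the orientation of their flanks. Of all genes, 51.7% had a divergent upstream neighbour and 51.6% a convergent downstream one. The counts below have no like count over pairs of unrelated genes beside them, so no trait of the pairs is read from them. The upstream orientation was the same in 33 of 59 pairs, divergent for both in 19 and tandem for both in 14. The downstream orientation was the same in 30 pairs, convergent for both in 16 and tandem for both in 14. Both sides were the same in 18 pairs. The RPL27 copies, for instance, both had a divergent neighbour upstream and a tandem one downstream. The RPS14 copies shared the divergent side only, with a gap of 1299 bp in RPS14A and 372 bp in RPS14B.

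The gap before a ribosomal protein gene was wider at the median than that before genes at large. Gene features in this annotation span coding sequence only, so a gap runs from the start codon to the nearest coding base of the neighbour and holds any untranslated sequence. The upstream gap had a median of 641 bp (quartiles 499 and 866) for ribosomal protein genes, against 341 bp for mitochondrial ribosomal protein genes and 455 bp for all genes. With a divergent neighbour it was 781 bp for ribosomal protein genes, 337.5 bp for mitochondrial ones and 541.5 bp for all genes. With a tandem neighbour it was 554 bp for ribosomal protein genes, 341 bp for mitochondrial ones and 400 bp for all genes. The median of ribosomal protein genes was thus the widest of the 3 groups in both orientations. In both, their quartile range overlapped that of all genes. With a divergent neighbour the quartiles were 600 and 1059 bp, against 296 and 841.75 bp for all genes. Among ribosomal protein genes, those with an intron had a median of 640 bp and those without one 661.5 bp.

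The downstream gap was also wider, with a median of 391 bp (quartiles 292 and 573), against 279 bp for mitochondrial ribosomal protein genes and 304 bp for all genes. With a convergent neighbour it was 317 bp for ribosomal protein genes, 244 bp for mitochondrial ones and 229 bp for all genes. With a tandem neighbour it was 480 bp for ribosomal protein genes, 304.5 bp for mitochondrial ones and 400 bp for all genes. In both classes the quartile range of ribosomal protein genes overlapped that of all genes. With a tandem neighbour it lay above that of mitochondrial ones, with a lower quartile of 368 bp for ribosomal protein genes and an upper quartile of 358 bp for mitochondrial ones.

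**Figure D4:**
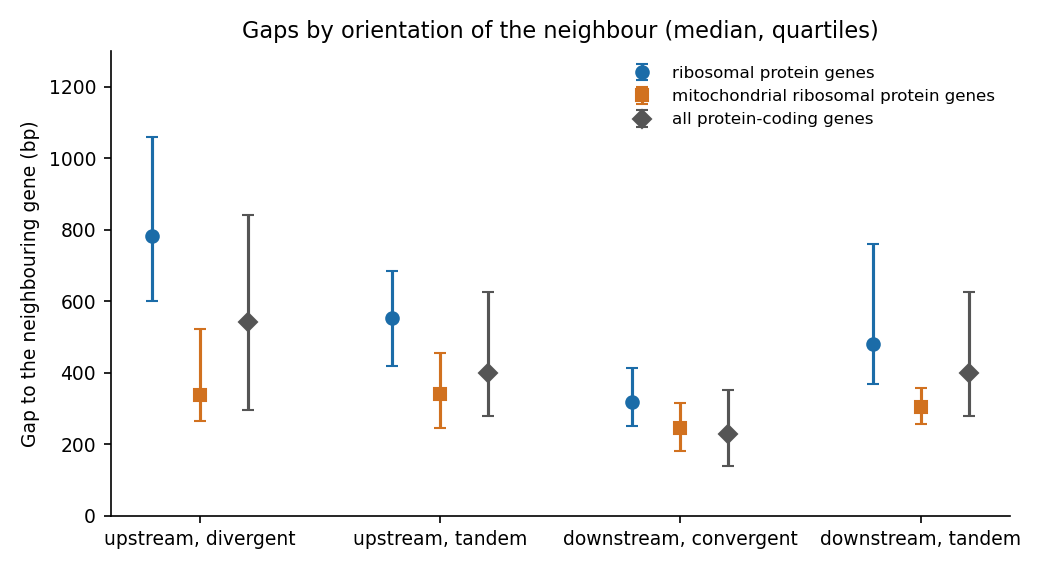
The vertical axis is the gap to the neighbouring protein-coding gene in bp, and the horizontal axis gives the side and orientation of the neighbour. Symbols are medians and bars run between the quartiles, for ribosomal protein genes (circles), mitochondrial ribosomal protein genes (squares) and all protein-coding genes (diamonds), with the ribosomal protein medians highest in each class, such as 781 bp upstream of divergent neighbours.

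The widest upstream gap, 2653 bp, separated RPL43B from IME1, the activator of meiosis, which is read the other way. RPS22B followed with 2050 bp, RPS3 with 2030 bp, RPS25A with 1598 bp and RPL26A with 1550 bp. The narrowest were 76 bp before RPL20A, 78 bp before RPS30B, 123 bp before RPL9B, 215 bp before RPL4A and 235 bp before RPS26A. The upstream neighbours of RPL20A and RPS30B, YMR242W-A and FYV12, were both divergent, so narrow gaps were found in that class too, and the other copy of RPS26 had 1503 bp.

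The widest downstream gap, 3766 bp, lay between RPS25B and MID2. RPL6A followed with 1902 bp, RPS27B with 1808 bp, RPL34A with 1309 bp and RPL9B with 1258 bp. RPL37B had the narrowest, 124 bp, then RPS10B with 126 bp, RPP2B with 135 bp, and RPS10A and RPS12 with 145 bp each. RPL9B thus combined a narrow gap in front with a wide one behind.

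Mobile elements and tRNA genes were seldom close. A tRNA gene lay within 1 kb of 2 of the 137 genes (1.46%), beside 7.05% of all genes. The 2 were RPS7B, with a tRNA gene 278 bp away, and RPL26A, with 1 at 631 bp. A long terminal repeat lay within 1 kb of 4 (2.92%), beside 6.69% of all genes. These were RPS25A (752 bp), RPS27B (756 bp), RPL26A (908 bp) and RPS25B (999 bp), and each of these 4 had an upstream or downstream gap among the 5 widest. For RPS25B that gap was the downstream one of 3766 bp, while the repeat lay on the upstream side, where the gap was 1530 bp.

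Of the 137 genes, 20 (14.6%) were next to another ribosomal protein gene, in 11 adjacencies, of which 5 were divergent, 2 convergent and 4 tandem. No like count over another gene set of this size stands beside these, so neither clustering nor orientation is read as a trait of the family. In 3 combinations both copies were adjacent, and the partners kept their order and orientation, and 2 of them are described here. RPL13A and RPS16B were divergent across 634 bp on chromosome IV, and RPL13B and RPS16A across 720 bp on chromosome XIII. RPS9B was followed in tandem by RPL21A after 761 bp on chromosome II, and RPS9A by RPL21B after 591 bp on chromosome XVI. The letters did not run together in either of these: an A copy neighboured a B copy.

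**Figure D5:**
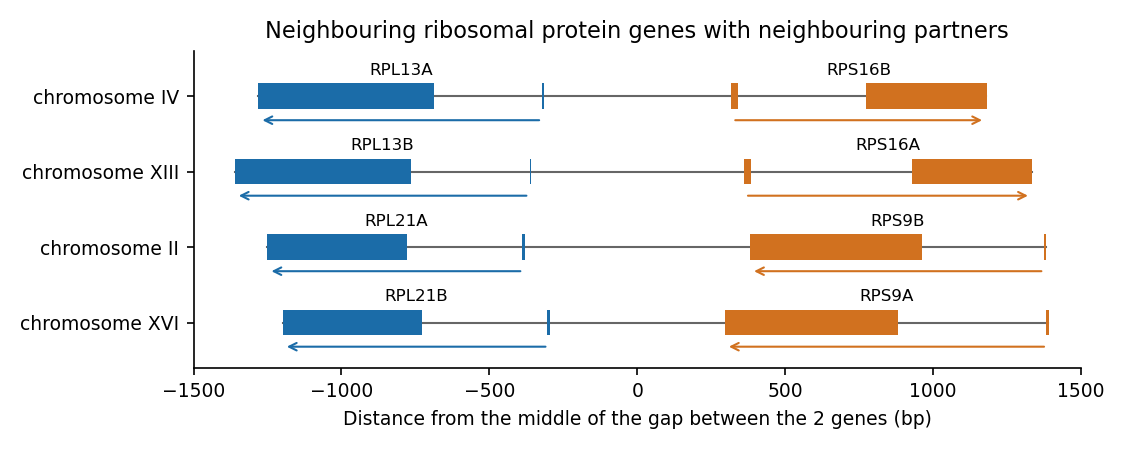
Each line is 1 chromosome stretch drawn to scale, with distance from the middle of the gap between the neighbours in bp on the horizontal axis and the RPL gene at the left, some stretches being mirrored for this. Boxes are coding parts, the lines between boxes of a gene are introns, and arrows give the direction of transcription, which is the same for both copies in the 2 combinations drawn, with gaps between 591 and 761 bp.

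Within 10 gene steps, 9 combinations of families were near each other in both copies, and all 9 had the same relative orientation in both. Besides those adjacent, they included RPL6 with RPS1, RPL21 with RPS6, RPL26 with RPS25, RPL35 with RPL41 and RPS6 with RPS9. They drew on 15 of the 78 families. RPL21, RPS6 and RPS9 share the same stretches of chromosomes II and XVI, so the combinations among them are not separate cases. No like count over other gene pairs stands beside the 9, so they are given as a description only. RPL35A and RPL41A stood 11889 bp apart and RPL35B and RPL41B 3356 bp apart, all on chromosome IV and convergent. The distance between the genes differed between the copies of each combination while the orientation did not.

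The other 5 adjacencies had no counterpart in the second copies. RPL39, RPL30 and RPS15 are single-copy, so for their adjacencies none could exist. RPL13A and RPP1A were convergent across 413 bp on chromosome IV, which with RPS16B makes a run of 3 ribosomal protein genes. RPS14B and RPS22A were convergent across 298 bp, and RPS22A and RPL39 divergent across 630 bp, which makes another run of 3 on chromosome X. RPL24A and the single-copy RPL30 were divergent across 1156 bp on chromosome VII, and the single-copy RPS15 and RPP2A were divergent across 719 bp on chromosome XV. Both runs held genes of the large and of the small subunit.

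Replication origins matter to these libraries, since the side on which a fork starts sets which strand is copied as the leading strand. The copies of a pair were read the same way relative to their nearest annotated origin in 34 of 59 pairs, both away from it in 16 and both toward it in 18, and different ways in 25. Their distances to the nearest origin differed by a median of 5.8 kb. Neither value has a like value over all genes or over pairs of unrelated genes beside it, so neither is read as a trait of the pairs. The distances differed most in RPS7, with 60.2 kb for RPS7A and 5.61 kb for RPS7B, then in RPL7, with 12.4 kb for RPL7A and 57.3 kb for RPL7B. RPL31 had 7.08 kb for RPL31A and 42.7 kb for RPL31B, RPL40 had 36.8 kb for RPL40A and 6.00 kb for RPL40B, and RPS22 had 7.40 kb for RPS22A and 31.8 kb for RPS22B. RPS7A and RPS7B also pointed different ways, toward the origin and away from it, and so did RPL7A and RPL7B, while the copies of RPL31, RPL40 and RPS22 all pointed toward theirs.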

How the data were processed

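The libraries were grouped by their strain labels. Bowtie 0.12.8 and cutadapt 1.2.1 stand in the submitters' processing notes. The library values, and with them the depth per library, were not analysed here. The deposited file used is the L03 (ref_v2) annotation, whose other values are start and end positions in bases, counted from 1. Per the file header, the authors made it from the S288C sequence, version R64-1-1, and the transfer of features to L03 is not described there. All coordinates are on L03. A table of the R64 genome served for names only, and all 137 loci and symbols were found in it.

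An intron was a gap of at least 20 bp between coding parts, as the file has no intron features, so introns before the start codon are not seen. Origins were the 274 annotated ones, at their midpoints. Named genes followed a rule: single-copy genes, pairs that differ, adjacent genes, the 5 highest and lowest values of each measure, and fixed lists, of which some genes are not reported here. Members and lists were chosen with earlier results of these data known. The routines, tested on simulated data, recovered the introns and coding lengths of 1000 of 1000 genes and the gaps of 996 of 996. Scripts ran under Python 3.11.15, using pandas 2.3.3, numpy 2.4.6, scipy 1.17.1 and, for figures, matplotlib 3.10.9. Alternatives changed the recognition of genes, the introns, neighbours and positions counted, and what counts as equal.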

Additional observations from a re-analysis of the deposited data

How the results depend on the processing

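Of 19 alternative values, 8 of them from settings chosen after seeing the data, 17 stayed near the value reported and 2 moved. Ontology terms in place of names found 14 genes instead of 138, as such text is present on 1 chromosome in the file. With only neighbours that carry experimental evidence, the median upstream gap of ribosomal protein genes was 761 bp instead of 641 bp, as fewer neighbours were counted. No value for other genes is given under this setting, so 761 bp is not set against the medians of the other groups. A difference of up to 1 codon taken as equal gave 57 pairs of equal coding length instead of 54. Introns before the start codon, protein identity and promoter motifs were not run, since the sources used here gave neither such introns nor sequences. No paired analysis was possible because the results come from no test and no library value. The annotation gives no error, so its precision is that of its gene models, and gaps depend on which reading frames it lists.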
